A study of Mus musculus with 7 samples.

Results

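Long stretches of the mouse autosomes that held no island of H3K27me3 in any of 7 livers were examined. They were chosen from the readout itself: the islands of all 7 lists were merged, and every stretch of 500 kb or more between 2 consecutive merged regions of the same autosome was taken, in the coordinates of the genome build mm9. There were 480 such long gaps among 17322 autosomal gaps of any length. The livers came from male CD-1 mice, an outbred stock, aged 7 weeks. In the vehicle group 3 mice had been injected with 1% DMSO in corn oil, and in the other group 4 mice had been injected with TCPOBOP at 3 mg/kg. All livers were collected 27 h later, and each list came from a separate liver. TCPOBOP is a ligand of CAR, the constitutive androstane receptor, through which drug-metabolising genes are switched on in liver. As an outbred stock, CD-1 mice differ in genotype, so the spread between livers includes differences between animals. The lists carry no gene names and no mm9 annotation was used, so liver marker genes could not be checked against the tissue label.

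H3K27me3 is a methylation mark on histone H3 that is written by the Polycomb repressive complex 2, PRC2, and is found over genes kept silent, many of them regulators of development. In differentiated tissues the mark forms both compact peaks at gene starts and broad domains. Large parts of mammalian genomes that are poor in genes, and arrays of tissue-restricted gene families, carry little of it and can be silenced by other means. A gap here states only that no list had an island: islands were called by the authors within each library, and windows with reads below the caller's threshold leave no trace in the lists. Stretches without sequence in the assembly, or in which reads cannot be placed, were not marked, since no mm9 sequence was used, and their part in the gaps was not tested.

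The long gaps were few but took up a large part of the autosomes. They made up 2.77% of all autosomal gaps and 36.1% of the length of all gaps, 536 of 1485 Mb. Of the 2400 Mb between the first and the last merged region of each autosome, 22.3% lay in long gaps. The median autosomal gap was 20.8 kb long, and the median long gap was 791 kb, with quartiles of 595 and 1209 kb. There were 168 gaps of 1 Mb or longer, which held 60.6% of the length of all long gaps, 64 of 2 Mb or longer and 21 of 3 Mb or longer. The threshold fell on a smooth slope of the length distribution. The 5 shortest members, on chromosomes 4, 1, 6, 19 and 4, were 500 to 502 kb long, and the 5 longest stretches that missed it, on chromosomes 18, 4, 10, 6 and 16, were 497 to 499 kb long.

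**Figure D1:**
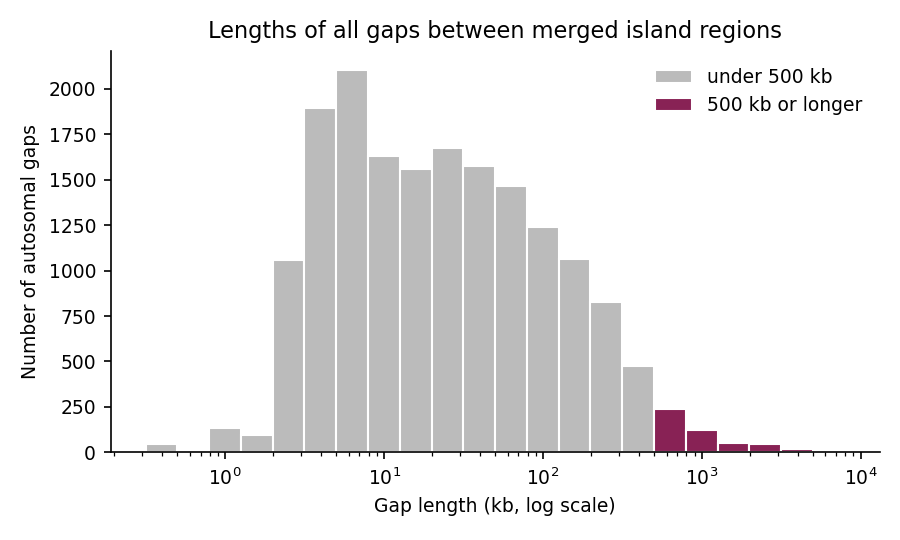
Histogram of the lengths of all 17322 autosomal gaps between merged island regions (x axis, length in kb in bins of equal width on a log scale; y axis, number of gaps), with the 480 gaps of 500 kb or longer in colour. The long gaps form the right tail of a single distribution and are not set apart by a dip.

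Chromosome 7 carried the longest gap and the largest share of its length in long gaps. The longest gap ran from 38963601 to 46852800, 7889 kb without an island in any liver, and a further 2 of the 5 longest gaps were on the same chromosome, from 20595201 to 24755200 (4160 kb) and from 6942001 to 11028400 (4086 kb). The second longest was on chromosome 2 from 85387201 to 90451600 (5064 kb) and the third on chromosome 1 from 25908001 to 30181600 (4274 kb). The other 5 of the 10 longest were on chromosome 12 from 17684001 to 21436800 (3753 kb) and from 21466801 to 25152800 (3686 kb), on chromosome 14 from 89757601 to 93456800 (3699 kb), on chromosome 15 from 15052801 to 18669200 (3616 kb) and on chromosome 2 from 97375201 to 100901200 (3526 kb). The 10 longest together held 8.16% of the length of all long gaps.

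How far the gap in a single liver ran beyond the shared gap differed between these 10. For each liver its own stretch was measured, from its last island before the gap to its first island after it. At the longest gap on chromosome 7 the own stretch was 8027, 8593 and 8356 kb in vehicle replicates 1 to 3 and 7973, 7889, 7938 and 8637 kb in TCPOBOP replicates 1 to 4. The groups overlapped, and in TCPOBOP replicate 2 the own stretch was as long as the shared gap. On chromosome 2 the second longest gap was bounded closely in 5 livers, at 5097, 5098 and 5084 kb with vehicle and 5077 and 5085 kb in TCPOBOP replicates 3 and 4, and was 5310 and 5406 kb long in TCPOBOP replicates 1 and 2. The gap of chromosome 7 from 6942001 was 4543, 6492 and 4192 kb long in the vehicle livers and 6420, 6489, 6487 and 6832 kb in the TCPOBOP livers. Here vehicle replicates 1 and 3 were short and the other 5 livers long, so the groups overlapped through vehicle replicate 2.

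The neighbouring gaps of chromosome 12 were parted in a single liver. A 30.0 kb region between them held islands in TCPOBOP replicate 4 and in no other liver. That liver had own stretches of 4099 and 3774 kb on the 2 sides, while the other 6 livers had 1 stretch of 7563 to 8071 kb across both. Of the 20 borders of the 10 longest gaps, 14 were regions with an island in 1 liver and 3 were regions with an island in all 7.

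**Figure D2:**
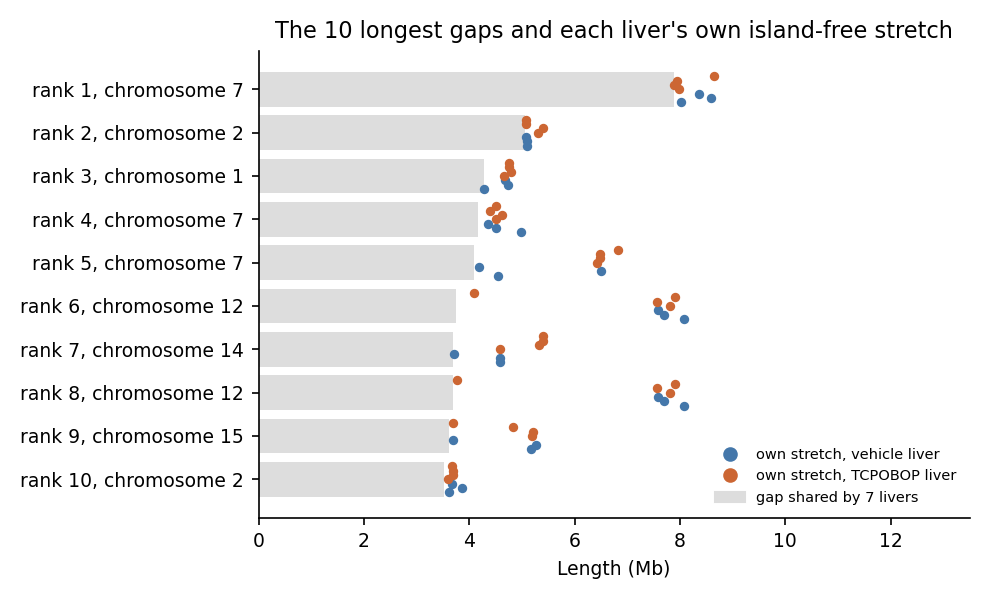
The 10 longest gaps in order of length. Grey bars give the length of the gap shared by all 7 livers in Mb (x axis), and points give the length of each liver's own island-free stretch around it, coloured by group. Points close to the bar end mark livers whose own stretch was little longer than the shared gap, as in 5 livers for rank 2, and points far beyond it mark livers whose stretch ran on where 1 or a few others had ended it, as for ranks 6 and 8, where 6 livers lie between 7563 and 8071 kb.

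Long gaps were spread over all autosomes but not evenly. They took up 28.6% of the span of chromosome 7 with 24 gaps, 28.5% of chromosome 3 with 35 gaps and 27.8% of chromosome 14 with 23 gaps. Chromosome 4 had the most gaps, 41, with a median of 654 kb and 26.7% of its span. At the other end were chromosome 11 with 12 gaps and 7.85% of its span, chromosome 19 with 9 gaps and 11.8%, chromosome 18 with 12 gaps and 13.6% and chromosome 9 with 22 gaps and 15.6%. Chromosome 7 had fewer gaps per 100 Mb than chromosome 4, 16.1 against 27.0, and longer ones, with a median of 956 kb.

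The longest gap of each of the other autosomes was shorter than 3.5 Mb. It measured 3362 kb on chromosome 17 (37364401 to 40726800), 3310 kb on chromosome 5 (59158001 to 62468400), 3170 kb on chromosome 6 (67490401 to 70660400), 3160 kb on chromosome 13 (85790401 to 88950400) and 3135 kb on chromosome 3 (42032801 to 45167600). Next came 3089 kb on chromosome 10 (46398401 to 49487200), 2880 kb on chromosome 8 (19247201 to 22127200), 2765 kb on chromosome 4 (36910801 to 39676000) and 2726 kb on chromosome 16 (81231601 to 83957600). The shortest of these maxima were 2169 kb on chromosome 18 (8135201 to 10304400), 1798 kb on chromosome 11 (14071601 to 15870000), 1703 kb on chromosome 9 (18562801 to 20265600) and 1103 kb on chromosome 19 (38902001 to 40004800).

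Gene number per chromosome, which does not need coordinates, was taken from RefSeq for the later build GRCm38.p6. Across the 19 autosomes the number of coding genes per Mb of span went with the share in long gaps only weakly (Pearson r -0.386, Spearman rho -0.298). This is a description over chromosomes that share the same 7 libraries. Chromosomes 7 and 11 each had 13.6 coding genes per Mb and lay at opposite ends of the order of gap share. Olfactory and vomeronasal receptor genes, which serve to detect odours and pheromones and lie in large arrays, numbered 417 on chromosome 7 and 83 on chromosome 11. On some other chromosomes their number and the gap share did not go together. There were 9 on chromosome 3 and 0 on chromosome 12, which had 28.5 and 25.4% of their spans in long gaps. Chromosomes 2 and 9 had 287 and 130, with 19.5 and 15.6% of their spans in long gaps. These are examples by count per chromosome, and no relation over the 19 autosomes was computed for receptor genes.

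**Figure D3:**
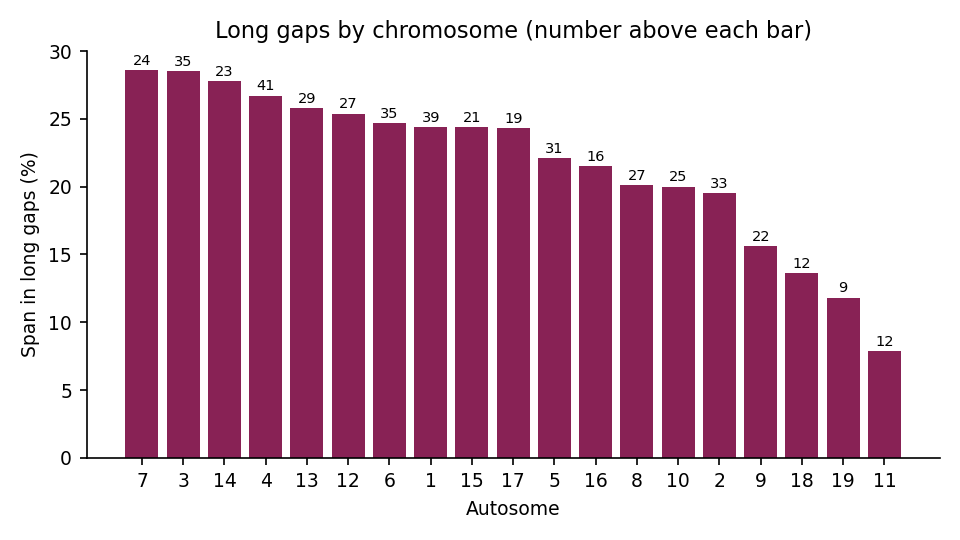
Share of each autosome's span that lay in long gaps (y axis, percent), with autosomes in descending order (x axis) and the number of long gaps above each bar. Chromosome 7 is highest at 28.6% and chromosome 11 lowest at 7.85%.

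Along the chromosomes the gaps lay more often towards the start, which in mouse chromosomes is the end that carries the centromere. The span of each autosome was divided into 3 equal parts. Of the length of long gaps, 41.1% was in gaps centred in the first part (193 gaps), 35.7% in the second (171 gaps) and 23.2% in the last (116 gaps). The first part held more than the last on 17 of 19 autosomes. The exceptions were chromosome 14, with 8.12 Mb in the first and 17.6 Mb in the last part, and chromosome 16, with 3.79 and 8.72 Mb. On chromosome 11 no long gap was centred in the last part.

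Long gaps stood close to each other. The long gaps had 955 neighbouring gaps, counted from each long gap in turn, so a pair of adjacent long gaps was counted from both sides. Of these neighbours 116 were long themselves (12.1%), against 2.77% of all autosomal gaps. Gaps of 100 kb to under 500 kb, called shorter gaps from here on, had a long gap as 273 of their 5929 neighbours (4.60%). The median gap next to a long gap was 64.8 kb, and next to a shorter gap 36.4 kb. In 185 of 461 cases (40.1%) the next long gap on the chromosome began within 1 Mb, and the median distance was 1.62 Mb. In blocks of 10 Mb, long gaps filled a median of 16.3%, over 50% in 27 of 238 blocks and nothing in 35. The fullest blocks were from 40000001 to 50000000 on chromosome 7 (86.4%), from 80000001 to 90000000 on chromosome 2 (78.1%) and from 70000001 to 80000000 on chromosome 4 (75.3%). The widest interval without a long gap was on chromosome 5 from 109992001 to 146221600, 36.2 Mb.

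Chains of long gaps were parted by single, short regions. There were 51 chains of 2 or more long gaps, which together held 109 of the 480, and the 58 regions inside them had a median length of 20.4 kb. The longest chain by number, on chromosome 15 from 19049601 to 24442800, had 4 gaps of 1117, 860, 1909 and 1459 kb, so that 99.1% of 5.39 Mb was gap. The first region inside it, 11.2 kb, had an island in TCPOBOP replicate 1 alone and the second, 10.0 kb, in vehicle replicate 3 alone. The third, 27.6 kb, had islands in 5 livers, all but the replicates numbered 2. In the chain of 3 gaps on chromosome 14 from 88159201 to 93456800, a 14.4 kb region from 88866801 to 88881200 had an island in all 7 livers, although 708 and 856 kb on its sides had none in any. The chain on chromosome 1 from 109758401 to 114271200 was parted by regions of 16.8 and 19.2 kb, each with islands in 2 livers, 1 of each group.

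A small set of gaps had nearly the same ends in all livers. The own stretch could be measured in all 7 livers for 473 long gaps; the other 7 lay where some liver had no further island towards the chromosome end. In 26 of the 473 (5.50%) no liver's own stretch was more than 5% longer than the shared gap, a limit set after the values were seen, whereas in 182 (38.5%) at least 1 liver's stretch was 2 or more times as long as the shared gap. The closest agreement was on chromosome 6 from 67490401 to 70660400, where the own stretch was 3176, 3177 and 3170 kb in the vehicle livers and 3176, 3172, 3176 and 3175 kb in the TCPOBOP livers. All 7 livers had an island in the regions at both ends, and the stretches differed by at most 0.227% of the gap. Next were a gap on chromosome 4 from 41686001 to 42879200 (1193 kb), with stretches at most 0.335% longer, and a gap on chromosome 10 from 127172401 to 128315200 (1143 kb), with stretches at most 0.630% longer, both with islands of all 7 livers at both ends. Less steady gaps of the 26 included one on chromosome 4 from 111585601 to 113972000 (2386 kb, at most 3.02% longer), where the own stretches were 2398, 2399 and 2402 kb with vehicle and 2400, 2458, 2402 and 2417 kb with TCPOBOP. On chromosome 8 from 19247201 to 22127200 (2880 kb, at most 3.47% longer) they were 2980, 2888 and 2930 kb with vehicle and 2902, 2959, 2925 and 2933 kb with TCPOBOP. The groups overlapped at the chromosome 6 gap and at these last 2.

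A few of the gaps were picked for the gene arrays known to lie there, from general knowledge of mm9 rather than from an annotation used here and after their values were seen. They were the steady gaps of chromosomes 6, 8 and, from 111585601, chromosome 4, and the long gap of chromosome 2 from 85387201. The other gaps were not looked up, so nothing follows on whether steady ends go with gene arrays. The interval on chromosome 6 is that of the immunoglobulin kappa locus, whose segments are joined in B cells to encode antibody light chains. The order of genes in RefSeq has 102 Igkv segments on chromosome 6 in 1 unbroken row with the joining segments and Igkc. The interval on chromosome 4 is that of the Skint genes, a family with a member that acts in the selection of T cells of the skin. In RefSeq 11 Skint genes follow one another between Slc5a9 and Trabd2b. The interval on chromosome 8 is that of the defensins, antimicrobial peptides of epithelia, with 29 Defa and 24 Defb genes on the chromosome. The longest unbroken rows held 25 of the Defa and 9 of the Defb genes, and how many lie in the gap was not counted. The gap on chromosome 2 lies at the largest array of olfactory receptor genes, of which 123 follow one another between Pramel6 and Ptprj and 287 are on the chromosome. Whether the ends of the gaps fall at the ends of the arrays was not tested.

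At the borders, the regions that ended long gaps were short and often found in few livers. The 960 borders fell in 902 regions with a median length of 24.8 kb, against 33.2 kb for the 16439 other autosomal regions. Of the 902, 336 (37.3%) had an island in 1 liver and 195 (21.6%) in all 7, against 18.5% and 39.1% of the others. Regions that bordered a shorter gap but no long gap lay between, with 25.1% in 1 liver and 33.9% in all 7. The islands at long gaps also ranked low by the authors' score within their own list. For each region and liver, the highest percentile of any island in the region was taken. Its median over the regions was 22.8, against 36.0 for the other regions. In single lists the median was between 34.4 (vehicle replicate 1) and 50.4 (TCPOBOP replicate 2), and in the other regions between 54.2 and 56.3. A longer region can hold more islands, so region length enters this comparison, and how far was not tested. As the same lists chose the borders, these values are a description. In 286 of 480 long gaps (59.6%) at least 1 end was a region with an island in a single liver, and in 23 (4.79%) both ends had an island in all 7.

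Some long gaps nevertheless adjoined very strong regions. Of those with an island in all 7 livers, the highest median percentile, 99.6, belonged to a 354 kb region on chromosome 17 from 86036401 to 86390800, after which a 726 kb gap began. Its cover by islands was 95.3 ± 3.33% (SD, n = 3) with vehicle and 91.0 ± 3.87% (SD, n = 4) with TCPOBOP. A 207 kb region on chromosome 15 from 82730801 to 82937600 followed a 595 kb gap (percentile 98.8), and a 56.0 kb region on chromosome 13 from 78301601 to 78357600 followed a 1142 kb gap (percentile 97.7). The other 2 of the top 5 were on chromosome 10 from 50576001 to 50666800, after a gap of 645 kb (percentile 97.4), and on chromosome 12 from 105657601 to 105929600, after a gap of 708 kb (percentile 97.3). In the last of these, cover was 88.4 ± 10.7% (SD, n = 3) with vehicle and 91.5 ± 2.03% (SD, n = 4) with TCPOBOP.

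To see whether a liver that had no say in the choice also lacked islands in the gaps, each liver was left out in turn, long gaps were found from the other 6 lists, and the left-out liver's islands were laid over them. A left-out liver covered 0.349 ± 0.178% (SD, n = 7) of the bases of the 487 to 510 long gaps so found, and 1.09 ± 0.244% (SD, n = 7) of the bases of shorter gaps. Its cover over the whole autosomal span was 22.4 to 25.2%. In vehicle replicates 1 to 3 the cover of long gaps was 0.314, 0.140 and 0.554%, and in TCPOBOP replicates 1 to 4 it was 0.606, 0.182, 0.387 and 0.262%. It was lower than in shorter gaps in 7 of 7 livers, with a mean difference of -0.738 percentage points (range -0.952 to -0.582; exact sign-flip permutation test, two-sided, p = 0.0156, the smallest it can give; adjusted 0.0156 over the 2 measures tested in this way). Any 2 of the 7 values rest on 5 common lists, so they are not independent. Stretches in which reads cannot be placed have no island in any list, the left-out one included. They were not marked, so how much of the outcome they fixed beforehand was not tested. Of bases at least 50 kb from both borders, 0.229 ± 0.144% in long and 0.567 ± 0.225% in shorter gaps were covered (SD, n = 7), a difference of -0.338 percentage points (lower in 7 of 7 livers, exact sign-flip permutation p = 0.0156). This was smaller than the difference over all bases, yet close to the borders long and shorter gaps had similar cover. In 10 kb bins at -5, -15 and -35 kb (inside the border), mean cover was 3.63, 1.53 and 0.896% in long gaps. In shorter gaps it was 3.91, 1.49 and 0.958%. A shorter gap has a larger share of its bases near a border. How far that share made up the difference over all bases was not tested. Counted per gap rather than per base, islands of the left-out liver fell in 16.5 to 38.6% of long gaps and 20.7 to 28.2% of shorter ones. The share was higher in long gaps for vehicle replicate 3 and TCPOBOP replicates 1 and 3. It was lower for vehicle replicate 2 and TCPOBOP replicates 2 and 4, and 23.4% in both for vehicle replicate 1. Long gaps hold more bases each, so the shares per gap are not on an equal footing.

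The surroundings of long gaps were also sparser. In the 100 kb outside each border, the left-out liver's islands covered 20.0 ± 2.32% (SD, n = 7) at long gaps and 30.5 ± 1.19% (SD, n = 7) at shorter gaps, lower in 7 of 7 livers, with a mean difference of -10.5 percentage points (exact sign-flip permutation test, two-sided, p = 0.0156, the smallest it can give, adjusted 0.0156). In bins of 10 kb, cover peaked at 15 kb outside the border, at a mean of 31.0% at long and 40.8% at shorter gaps. It had fallen to 15.5% at 95 kb outside long gaps and was 17.1% at 495 kb. At shorter gaps it was 26.2 and 25.1% at these distances. In vehicle and TCPOBOP livers cover outside long gaps was 20.1 ± 2.66% (SD, n = 3) and 19.9 ± 2.46% (SD, n = 4), and inside them it was 0.336 ± 0.208% and 0.359 ± 0.185%, so that the groups overlapped in both. The replicates numbered 2, which had the least autosome under islands (537 Mb each, against 583 to 604 Mb in the other livers), had the lowest cover outside long gaps, 17.2 and 16.5%. Without both of them the mean difference outside the borders was again -10.5 percentage points and inside it was -1.12, and 5 livers cannot give a p below 0.0625. Fewer lists then found the gaps, so the inside value is not on an equal footing with the -0.738 of all 7 livers. With any 1 liver left out it was also larger in size, from -0.945 to -0.870.

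**Figure D4:**
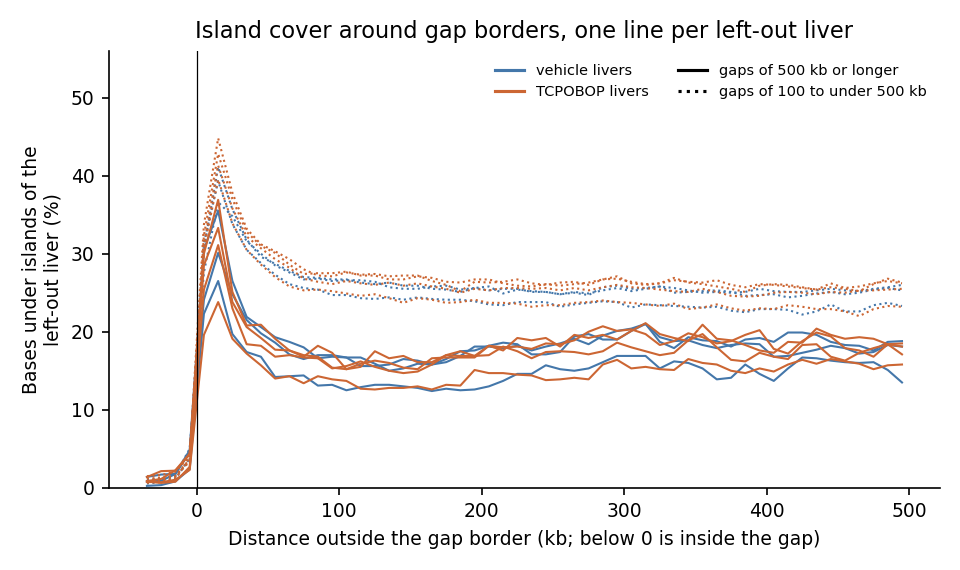
Percent of bases under the islands of a left-out liver (y axis) in 10 kb bins by distance outside the gap border (x axis, kb, values below 0 inside the gap). Each line is 1 liver, solid for gaps of 500 kb or longer and dotted for gaps of 100 to under 500 kb. The mean peaks at 31.0% outside long and 40.8% outside shorter gaps, and the solid lines lie below the dotted ones beyond 50 kb.

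Whether the extent of the gaps differed between vehicle and TCPOBOP livers was asked in 4 comparisons, and 0 of 4 passed the test. The first concerned the number of a liver's own stretches of 500 kb or longer, found from its list alone. There were 786, 762 and 731 in vehicle replicates 1 to 3 and 659, 740, 713 and 710 in TCPOBOP replicates 1 to 4. TCPOBOP replicate 1 was lowest, and TCPOBOP replicate 2 lay above vehicle replicate 3, so the groups overlapped. Means were 760 ± 27.6 (SD, n = 3) and 706 ± 33.8 (SD, n = 4), a difference of -54.2 (95% interval -163 to 26.3; two-sided exact permutation test, p = 0.0857, adjusted 0.343 over the 4 comparisons). With 3 and 4 livers the smallest p is 0.0286. The number of islands moved with this count: vehicle replicate 1 had the fewest islands, 14167, and the most long stretches, and TCPOBOP replicate 1 the most islands, 20550, and the fewest. With lists of equal island length the difference was -32.9 (exact permutation p = 0.343).

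These own stretches added up to 917, 950 and 814 Mb with vehicle and 741, 955, 811 and 842 Mb with TCPOBOP, and the groups overlapped. Means were 894 ± 71.1 Mb (SD, n = 3) and 837 ± 89.3 Mb (SD, n = 4), a difference of -56.4 Mb (95% interval -281 to 219; exact permutation p = 0.429, adjusted 0.762). Leaving out TCPOBOP replicate 1 brought it to -24.2 Mb and leaving out vehicle replicate 3 to -96.3 Mb. Between 52.4% (vehicle replicate 1) and 67.2% (TCPOBOP replicate 1) of a liver's own long stretches held a gap shared by all 7 livers.

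From a border of a long gap to the nearest island of the same liver outside it, the mean distance was 330, 400 and 188 kb in vehicle replicates 1 to 3 and 170, 509, 245 and 291 kb in TCPOBOP replicates 1 to 4. Both replicates numbered 2 were the highest of their groups. Means were 306 ± 108 kb (SD, n = 3) and 304 ± 146 kb (SD, n = 4), a difference of -1.58 kb (95% interval -314 to 478; exact permutation p = 1.00, adjusted 1.00). Its sign turned when single livers were left out, with a range from -70.0 kb without TCPOBOP replicate 2 to 45.6 kb without vehicle replicate 2, and without both replicates numbered 2 it was -22.9 kb. Medians were far below the means, from 10.4 kb in TCPOBOP replicate 1 to 105 kb in TCPOBOP replicate 2, since a minority of borders lay far from the next island. At 98 of 960 borders (10.2%) all 7 livers had an island within 10 kb, and at 307 (32.0%) some liver had none within 500 kb.

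An own island in the region that ended the gap was present at 40.0, 40.9 and 54.1% of borders in vehicle replicates 1 to 3 and at 60.6, 36.5, 52.1 and 46.7% in TCPOBOP replicates 1 to 4. The lowest and the highest value were both in the TCPOBOP group. Means were 45.0 ± 7.86% (SD, n = 3) and 49.0 ± 10.1% (SD, n = 4), a difference of 3.96 percentage points (95% interval -25.2 to 31.2; exact permutation p = 0.571, adjusted 0.762). Without TCPOBOP replicate 1 the difference was 0.0694 and without vehicle replicate 3 it was 8.49 percentage points. Islands that no other liver had ended gaps most often in TCPOBOP replicate 1, with 99 regions, and least often in vehicle replicate 2, with 19.

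**Figure D5:**
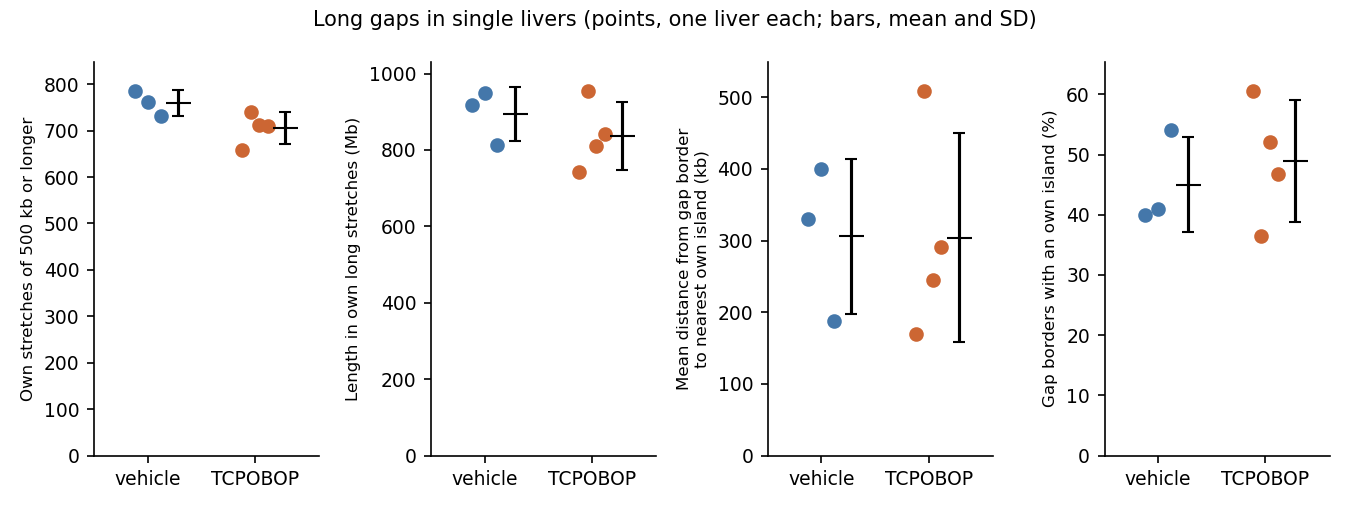
The 4 measures compared between groups, from left to right the number of a liver's own stretches of 500 kb or longer, their summed length in Mb, the mean distance in kb from a gap border to the nearest own island, and the percent of gap borders with an own island in the bordering region. Points are single livers (3 vehicle, 4 TCPOBOP), and bars give the mean and SD. The groups overlap in every panel, and the means of the distance are 306 and 304 kb.

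Gaps were also found from the livers of 1 group alone. The 3 vehicle lists had 599 long gaps of 669 Mb in all. Sets of 3 of the 4 TCPOBOP lists, used to keep the number of lists equal, had 545 to 572 long gaps of 612 to 666 Mb. Between 82.5 and 87.2% of the length of the vehicle gaps lay in long gaps of such a TCPOBOP set, and 87.7 to 90.6% of the length of the TCPOBOP gaps lay in those of vehicle.

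Single gaps were tested with limma on the log2 length of the own stretch. The fit took all 17254 autosomal gaps that had a value in every liver and differed between livers. Neighbouring gaps can lie in the same own stretch of a liver and then share its value. The gaps, and the counts of them given here and below, are thus not separate units. Of the 473 long gaps in the fit, 0 had an adjusted p under 0.05, against 6 of all gaps (0.0348%), and 2 (0.423%) had an unadjusted p under 0.05, against 3.26% of all gaps. The median log2 difference over the long gaps was -0.03 (TCPOBOP minus vehicle) with a median standard error of 0.27, and over all gaps it was -0.16 with 0.73. The own stretch of a long gap cannot be shorter than the shared gap, which limits how far it can differ between livers. As a check, 200 of the 17254 gaps, drawn from all lengths, had their values lengthened in the TCPOBOP livers. At log2 changes of 1, 2 and 3 the fit found 0, 0.5 and 16.5% of them. Most such changes were thus not detectable over gaps of all lengths. As long gaps had a smaller median standard error, these shares need not hold for them, and shortened stretches were not tried.

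Few long gaps had own stretches that did not overlap between the groups. The stretch was longer in every TCPOBOP liver at 2 of 473 long gaps (0.423%), against 1.17% of all gaps, and shorter in every TCPOBOP liver at 12 (2.54%), against 3.11%, shares below or near those of all gaps. The largest difference was on chromosome 14 from 12354801 to 13104000 (749 kb). The own stretch there was 2788, 2685 and 1476 kb in vehicle replicates 1 to 3 and 1045, 1094, 769 and 749 kb in TCPOBOP replicates 1 to 4. TCPOBOP livers thus had an island nearer to this gap (log2 difference -1.31, SE 0.33, limma adjusted p = 1.00). Next on chromosome 8 were the neighbouring gaps from 4524401 to 5374400 and from 5490001 to 6549600, with log2 differences of -0.72 and -0.55 (SE 0.42 and 0.33, limma adjusted p = 1.00 each). Both lay in 1 common stretch of 2072, 2508 and 2055 kb in the vehicle livers and of 2025 and 2049 kb in TCPOBOP replicates 2 and 4, and only TCPOBOP replicates 1 and 3 had islands between them. In the other direction, the gap on chromosome 1 from 5024801 to 5574800 was 552, 552 and 550 kb long with vehicle and 554, 862, 880 and 554 kb with TCPOBOP (log2 difference 0.33, SE 0.29, limma adjusted p = 1.00). The gap on chromosome 7 from 48213201 to 50580000 was 2378, 2370 and 2377 kb long with vehicle and 2422, 2443, 2423 and 2384 kb with TCPOBOP. The groups were apart by a small margin (log2 difference 0.03, SE 0.17, limma adjusted p = 1.00).

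Of the 6 gaps that passed limma over all gaps, 0 were long themselves, but 3 lay near a long gap and were joined to one in every vehicle liver and in no TCPOBOP liver. The share of all gaps joined in this way is not given here, so the 3 cannot be set against it. All 6 had a longer own stretch in the vehicle livers. Over all gaps this was also the more frequent direction. The stretch was shorter in every TCPOBOP liver at 3.11% of them and longer at 1.17%. The 52.0 kb gap on chromosome 3 from 41889201 to 41941200 was part of own stretches of 3395, 3287 and 3282 kb in the vehicle livers, which reached over the longest gap of that chromosome. In TCPOBOP livers its own stretch was 124, 94.0, 65.6 and 115 kb (log2 difference -5.10, SE 0.30, limma adjusted p = 0.0179). The stretch of the 11.6 kb gap on chromosome 17 from 59237601 to 59249200 was 3291, 3735 and 3312 kb with vehicle and 40.0, 36.4 and 43.2 kb in TCPOBOP replicates 2 to 4, with a shorter one still in TCPOBOP replicate 1 (log2 difference -6.81, SE 0.46, limma adjusted p = 0.0199). For the 16.0 kb gap on chromosome 6 from 124233201 to 124249200 it was 1026, 1412 and 1042 kb with vehicle and 16.0, 36.4, 19.2 and 34.0 kb with TCPOBOP (log2 difference -5.53, SE 0.40, limma adjusted p = 0.0223). These large differences belong to the small gaps and not to the long gaps in the same vehicle stretches. For the long gap the log2 difference was -0.0646 on chromosome 3 and 0.0339 on chromosome 6. On chromosome 17 it was -0.608 and -0.624 for the long gaps from 60486801 and from 61446001. In TCPOBOP replicates 2 and 4 these still lay in stretches of 3328 and 3187 kb. The 6 calls depended on single livers. Over all gaps limma called 0 without vehicle replicate 1 or TCPOBOP replicate 3, 1 without TCPOBOP replicate 1 and 5 without TCPOBOP replicate 4. It called 11 without TCPOBOP replicate 2, 15 without vehicle replicate 3 and 18 without vehicle replicate 2. It called 0 without both replicates numbered 2.

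The regions at the borders were tested in a second limma fit, on the fraction of each merged region under islands. Of 566 bordering regions in the fit, 0 passed, as did 0 of all 13988 regions (0%), and 18 (3.18%) had an unadjusted p under 0.05, against 3.87% of all. The lowest adjusted p of a bordering region was 1.00. As a check, the fractions of 200 regions with islands in every liver were set to 0 in the TCPOBOP livers. This fit found 0% of them, so its count says nothing on whether regions changed. Among all 17394 merged regions, 45 (0.259%) held islands of the 4 TCPOBOP livers and of no vehicle liver, and 15 (0.0862%) the reverse. Among the 902 bordering regions there was 1 of each kind (0.111%). The first was a 12.4 kb region on chromosome 6 from 124220801 to 124233200, at the end of a 978 kb gap, with 11.2, 9.60, 9.60 and 9.20 kb under islands in TCPOBOP replicates 1 to 4 and none in the 3 vehicle livers (difference in fraction 0.798, SE 0.275, limma adjusted p = 1.00). It stood between that long gap and the 16.0 kb gap just described. Without trend and robust variance limma called this region (adjusted p = 0.0404), as 1 of 566 bordering regions (0.177%), against 13 of all 13988 regions (0.0929%). The second, on chromosome 8 from 84506001 to 84538400, stood before a 637 kb gap and had 29.6, 12.4 and 16.4 kb under islands in vehicle replicates 1 to 3 and none in the 4 TCPOBOP livers (difference in fraction -0.601, SE 0.313, limma adjusted p = 1.00).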

How the data were processed

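H3K27me3 islands from liver chromatin of 7 mice were used. Per the labels, chromatin of each liver was precipitated with 1 antibody and sequenced. The submitters' processing notes name Bowtie2 2.3.2, SICER 1.1 and mm9. The deposited lists give, for each island, its position and a score, the authors' own value, which has no fixed range and was used only to rank or filter within a list. Per the names of the lists, islands were called with 400 bp windows, gaps of up to 2400 bp and an E-value threshold of 100. Islands that touched or overlapped were merged within and across lists. Input control, filters, treatment of duplicate reads and read numbers were not given in the sources used here, so depth is described only by the number of islands, 14167 to 20550 per liver.

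Groups were compared by exact permutation, two-sided, over the 35 ways to divide 7 livers into 3 and 4, with 95% intervals from inverting the test and Benjamini-Hochberg adjustment. Left-out livers were compared with exact sign-flip tests. Own stretch lengths (log2 kb, all autosomal gaps) and covered fractions (regions with an island in at least 2 livers) were fitted with limma 3.58.1 (trend, robust) in R 4.3.3, and an adjusted p under 0.05 passed. Other steps used Python 3.11.15, NumPy 2.4.6, SciPy 1.17.1 and pandas 2.3.3. Gap finding and the exact tests were checked on simulated lists, and the limma fits on the real values with known changes added. Regions were named by rule: the 10 longest, the longest of each autosome, the 3 longest chains, 5 on each side of the threshold, 3 per direction of those without overlap, and 5 strongest borders. Gaps with steady ends, those at gene arrays, and gaps and regions called by limma or held by the livers of 1 group only were named beyond the rule, after their values were seen. The gaps, measures and lists were chosen with earlier results of these data known. Gene names and order came from RefSeq (GRCm38.p6), and none of its coordinates were used, so planned counts of gene families inside the gaps were not made.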

Additional observations from a re-analysis of the deposited data

How the results depend on the processing

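With a minimum of 250 or 1000 kb there were 1350 or 168 gaps in place of 480; leaving out 1 liver gave 487 to 510. Of 120 recomputed values, 107 kept their direction and their side of the threshold, or a count within 1.5 times. The difference in distance to the nearest island, -1.58 kb, turned to 6.89 kb with a minimum of 1000 kb, to 23.9 kb with lists of equal length and to 2.66 kb with the replicate block, and ran from -70.0 to 45.6 kb with 1 liver left out. Without both libraries numbered 2 the held-out differences were -1.12 inside and -10.5 outside, against -0.738 and -10.5 with all 7 livers. The exact sign-flip p was 0.0625, the smallest that 5 livers can give. With 1 liver left out the held-out differences ran from -0.945 to -0.870 inside and from -10.9 to -10.1 outside. In both cases fewer lists found the gaps, so these held-out values are not on an equal footing with the main ones. With 1 liver left out, the group difference in own long stretches ran from -68.5 to -38.7. That in their length ran from -96.3 to -24.2 Mb and that in borders with an island from 0.0694 to 8.49 percentage points. Bordering regions called by limma rose from 0 to 1 without trend and robust variance, and all regions called from 0 to 13. The labels give no shared animal or batch for a replicate number. Deviations of same-numbered livers from their group means correlated at 0.0228, 0.218 and 0.0483 over merged regions. Only the livers numbered 2 correlated best with their own number. Whether livers of the same number shared a batch was not tested. With the replicate block 0 gaps of any length passed limma, in place of 6, and the other 3 group differences were -55.7 stretches, -57.9 Mb and 4.72 percentage points. With 1 liver left out, the number of gaps of any length that passed limma ran from 0 to 18, in place of 6. The causes were not tested. Without read numbers, weak signal inside the gaps was not detectable.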
